A study of Mus musculus with 3 samples.

Results

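Heat shock factor target chaperones are the genes that heat shock factor 1 (HSF1) is best known for switching on: the inducible HSP70 genes Hspa1a and Hspa1b, their constitutive relative Hspa8, the HSP70 partners Hsph1 and Dnajb1, the HSP90 genes Hsp90aa1 and Hsp90ab1, the small heat shock protein Hspb1, and the mitochondrial chaperonin genes Hspd1 and Hspe1. They were chosen by gene symbol, with earlier results of these data known, and all 10 were found among 18287 listed genes. The RNA came from bought endothelial cells of the mouse aorta, grown in the supplier's medium. Control cells, cells exposed to glucose oxidase (5 mU/mL, 30 min), and cells exposed to glucose oxidase and to ethyl-2-hydroxybenzylamine (Et2HOBA, 0.2 mM, 24 h) gave 1 library each, and the last is called the combined treatment. Glucose oxidase oxidizes glucose and releases hydrogen peroxide, and Et2HOBA served to scavenge adduct-forming isolevuglandins. The labels leave the order of the exposures unsaid, and Et2HOBA without glucose oxidase was not analysed here. Read counts given as 3 values follow the order control, glucose oxidase, combined treatment.

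In resting cells HSF1 is held inactive by chaperones. When unfolded proteins draw the chaperones away, HSF1 forms trimers, binds heat shock elements (inverted repeats of the letters GAA) and induces chaperone transcription, which in turn restrains HSF1. In the endothelium this response is known to follow heat, oxidants and other agents that damage proteins.

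The promoters of the members were searched for these elements. Promoter windows from RefSeq (GRCm38.p6) run from 250 bases before to 50 bases after a transcript start, and 7 of the 10 members had at least 1 window. The first motif searched was a pair of units facing each other, GAANNTTC or TTCNNGAA. The second was a run of 3 units, GAANNTTCNNGAA or TTCNNGAANNTTC, which contains a pair. Each of the pair motifs is its own reverse complement and the run motifs are each other's, so both strands were covered. A pair was present in 15.1% of all 32851 windows and a run of 3 units in 0.603%. The members were instead counted by gene, where a match in any of a gene's 1 or 2 windows was enough. Among the 7 members, 6 had a pair and 3 of these (Hsph1, Hspd1 and Hspe1) had a run of 3 units. The runs of Hspd1 and Hspe1 lie on the same bases. Dnajb1 had neither motif in these windows. A match is a string of letters, and binding was not measured.

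The 150 bases before the start of Hspa1a, Hspa1b and Hspb1, the genes with the largest differences between libraries, are shown 5′ to 3′ with the paired units in capitals. They lie at chr17:34972157-34972306 (minus strand), chr17:34959239-34959388 (minus strand) and chr5:135887769-135887918 (plus strand). None of these bases is in an annotated exon.
Hspa1a: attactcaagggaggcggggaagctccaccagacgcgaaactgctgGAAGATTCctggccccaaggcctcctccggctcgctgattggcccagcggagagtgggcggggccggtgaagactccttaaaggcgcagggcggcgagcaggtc
Hspa1b: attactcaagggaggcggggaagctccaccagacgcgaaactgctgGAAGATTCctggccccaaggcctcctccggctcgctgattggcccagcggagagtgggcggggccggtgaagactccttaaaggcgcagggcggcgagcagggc
Hspb1: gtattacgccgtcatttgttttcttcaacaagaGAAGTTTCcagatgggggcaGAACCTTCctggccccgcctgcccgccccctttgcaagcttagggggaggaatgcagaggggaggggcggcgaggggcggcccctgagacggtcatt
The Hspa1a and Hspa1b stretches differed at 1 of 150 bases, and their whole windows at 4 of 300 bases. Both carried the pair between 104 and 97 bases before the start.

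Short stretches of 30 bases hold the runs of Hspe1 (chr1:55088053-55088082, plus strand), Hspd1 (the same bases on the minus strand) and Hsph1 (chr5:149636279-149636308, minus strand). They are shown because Hspd1 and Hspe1, which are transcribed in opposite directions, hold the same element in their windows, and because the Hsph1 run lies after its start.
Hspe1: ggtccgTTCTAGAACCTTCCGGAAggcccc
Hspd1: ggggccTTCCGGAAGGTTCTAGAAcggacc
Hsph1: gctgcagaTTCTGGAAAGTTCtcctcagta
The shared element began 89 bases before the Hspe1 start. It lay in 1 of the 2 Hspd1 windows, that of the start farther inside the gene, where its first run began 144 bases before the start. In Hsph1 the run lay between 37 and 49 bases after the first of its 2 listed starts, which is between 16 and 28 bases after the second.

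**Figure D1:**
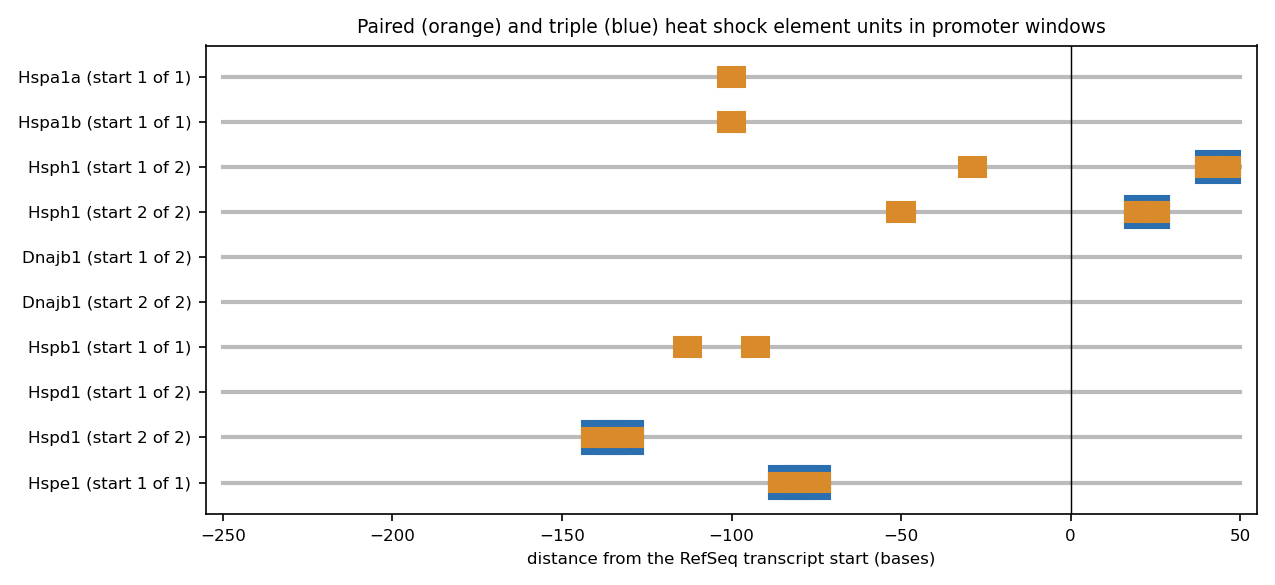
Positions of paired units (orange) and of runs of 3 units (blue) in the promoter windows of 7 members, in bases from each RefSeq transcript start (0, vertical line); each grey line is a window. Hspa1a and Hspa1b carry a pair at the same place, and runs of 3 units appear in windows of Hsph1, Hspd1 and Hspe1.

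The libraries held 35005089 to 40212212 reads over the listed genes. With 1 library per group no difference has a replicate check, so no test between conditions was possible. A normalized count is the reads of a gene divided by the size factor of its library, and a log2 ratio compares normalized counts after 10 is added to each. A gene passed the limit where its log2 ratio was 1 or more in size. Folds are ratios of normalized counts without an addition, with exact Clopper-Pearson intervals at 95% that cover counting error between 2 libraries only. Reads without molecular identifiers are not independent molecules. The glucose oxidase library stood apart in its processed pseudogenes, intronless copies of spliced transcripts: 841 of 2110 were lower than control past the limit and 8 higher, against 52 lower and 78 higher with Et2HOBA added. All 10 endothelial markers were listed, the lowest with 1688 reads, and their summed normalized count was 366417.5 in control, 261733 under glucose oxidase and 264826.4 under the combined treatment. The sum holds markers that went both ways: 2 of 10 were above control under glucose oxidase and 3 under the combined treatment. Nos3 had 30246, 47041 and 74692 reads, while Vwf had 46607, 21567 and 12545. In bulk RNA, fewer cells of a type and less RNA per cell cannot be told apart.

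Of the markers of other cells, Cd68, Pdgfra and Smtn had at least 107 reads in every library, and each of the others that were listed had at most 73. Of 5 leukocyte markers 2 were listed, Csf1r with 6, 12 and 10 reads and Cd68 with 8215, 17067 and 27799. Of 5 fibroblast markers 3 were listed, Col1a1 with 23 to 30 reads, Col3a1 with 0 to 12, and Pdgfra with 107, 1325 and 2821. Smooth muscle markers numbered 4 of 5, with Acta2, Myh11 and Tagln at 4 to 73 reads and Smtn at 3517 to 4970, and 1 of 4 epithelial markers was listed, Krt8, at 1 to 6 reads. The summed normalized count was 7966.2 to 26775.1 for leukocyte, 132.8 to 2738.3 for fibroblast, 3707.4 to 4850.9 for smooth muscle and 1.0 to 5.8 for epithelial markers. The part of Cd68 and Pdgfra, which moved in the same order as the inducible chaperones, was not tested.

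Hspa1a, Hspa1b and Hspb1 were higher than control past the limit after glucose oxidase, and higher again past the limit with Et2HOBA, whereas the HSP90 genes were within 1.29-fold of control and Hspa8 was lower. After glucose oxidase, 3 of the 10 members (Hspa1a, Hspb1 and Hspa1b) passed the limit upward and 0 downward. Over all listed genes, 12.7% passed in either direction and 4.07% upward, and over protein-coding genes 9.3% and 4.53%. The median log2 ratio of the members was 0.58, and 9 of 10 were above 0, beside a median of -0.01 over all genes. When 100 rather than 10 was added to the counts, 2 members passed, since Hspb1 with its low counts had a log2 ratio of 0.69. With Et2HOBA added, Hsph1 and Hspd1 joined them, so that 5 of 10 were higher than control and 0 lower. The shares over all genes were 14.7% in either direction and 6.66% upward, and over protein-coding genes 16.6% and 7.33%. The member median was 0.81, beside -0.0002 over all genes. Both comparisons use the same control library, and the members were chosen with earlier results of these data known. Scaling by total counts moves the all-gene median of this comparison to -0.13. Under it 3 members passed instead of 5 (Hsph1 and Hspd1 did not). Of all genes past the limit, 35% rather than 45.3% were higher. Relative to the all-gene median 5 members passed, but subtracting it nearly undoes the change of scaling, so that count is no separate check.

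**Figure D2:**
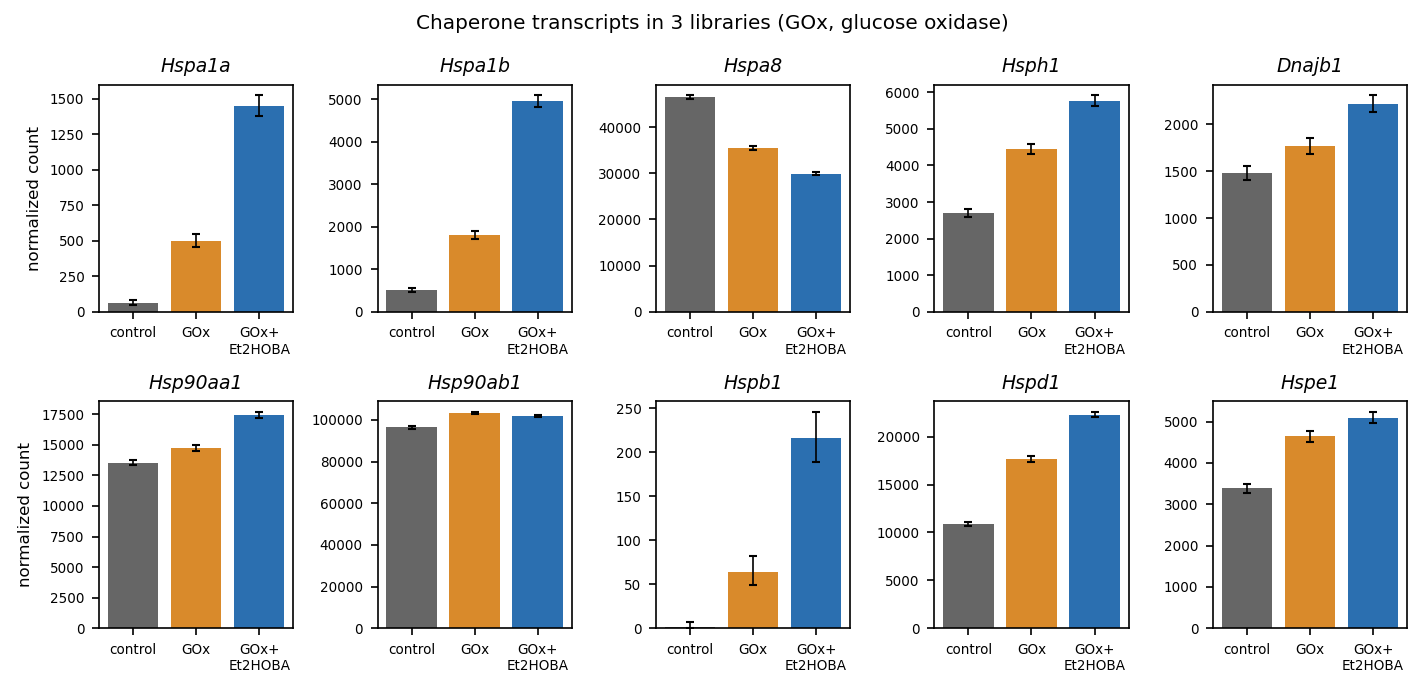
Normalized counts of the 10 members in the 3 libraries (bars from 0, a separate axis for each gene; GOx, glucose oxidase), with exact 95% Poisson intervals as error bars, which cover counting error only. The bar of Hspb1 in control stands for 2 reads; Hspa8 is the member whose bars step down across the libraries.

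Hspa1a and Hspa1b encode the stress-inducible HSP70 proteins, which bind exposed hydrophobic stretches of unfolded clients. Hspa1a (ENSMUSG00000091971.3, chromosome 17, 34969190 to 34972156) had 66 reads in control, 483 under glucose oxidase and 1505 under the combined treatment. Control was the lowest library and the combined treatment the highest. These are 7.82-fold (95% interval 6.04 to 10.28) and 22.7-fold (17.7 to 29.45) the control level, at percentiles 99.7 and 99.9 of the log2 ratios of all listed genes. Its neighbour Hspa1b (ENSMUSG00000090877.3, chromosome 17, 34956436 to 34959238) had 523, 1746 and 5152 reads, in the same order. It was 3.57-fold higher after glucose oxidase (3.235 to 3.943) and 9.79-fold with Et2HOBA (8.944 to 10.73). The 2 genes have nearly the same coding sequence: 66.3% of the 50-base stretches of the longest Hspa1a transcript and 62.3% of those of Hspa1b occur in another gene, so the split between them depends on how shared reads were assigned. Their sum does not depend on that split. It was 589, 2229 and 6657 reads, or 4.05-fold (3.693 to 4.438) and 11.2-fold (10.32 to 12.24) the control level. The Hspa1a share of these reads was 11.2% in control (Clopper-Pearson interval 8.77 to 14.0%), 21.7% after glucose oxidase (20 to 23.4%) and 22.6% with Et2HOBA (21.6 to 23.6%). Hspa1l, a related gene in the same cluster that is not stress-inducible, stayed low at 44, 31 and 33 reads.

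Hspa8 encodes HSC70, the constitutive HSP70 that folds new proteins and uncoats clathrin vesicles. It ran the other way. Hspa8 (ENSMUSG00000015656.17, chromosome 9, 40800984 to 40810087) had 47952, 34252 and 31040 reads, highest in control and lowest under the combined treatment. It was 0.764 of control (0.7531 to 0.7743) and then 0.643 of control (0.634 to 0.6524), and neither value passed the limit. Its log2 ratios of -0.39 and -0.64 made it the only member below control in these comparisons under the main scaling. Per length, in TPM (reads divided by annotated exon length, scaled to the same total in each library), Hspa8 stood at 1079, 802 and 623, against 20.22, 79.15 and 202.4 for Hspa1a and Hspa1b together. The inducible pair was 1.84% of the 3 HSP70 members by this measure in control, 8.98% under glucose oxidase and 24.5% under the combined treatment. With the reads of its listed pseudogene copies added, Hspa8 stood at 1590, 1130 and 913 TPM, which would make these shares lower. The summed level of the 3 members, without these copies, was 1100 TPM in control, 881.4 under glucose oxidase and 825.1 under the combined treatment. The difference in Hspa8 was thus larger than that in the inducible pair.

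HSP70 works with partners. Hsph1 encodes HSP110, which exchanges nucleotide on HSP70 and helps to dissolve aggregates. Hsph1 (ENSMUSG00000029657.15, chromosome 5, 149614287 to 149636376) had 2781, 4296 and 5989 reads, lowest in control and highest with Et2HOBA. It was 1.65-fold (1.574 to 1.733) and 2.14-fold (2.045 to 2.239) the control level. None of its 50-base stretches occurs in another gene, so its count is the least affected by shared reads among the 10. Dnajb1 encodes the J-domain protein that loads clients onto HSP70 and starts its ATP cycle. Dnajb1 (ENSMUSG00000005483.10, chromosome 8, 83608193 to 83612653) had 1531, 1706 and 2302 reads, and did not pass the limit, at 1.19-fold (1.111 to 1.277) and 1.49-fold (1.4 to 1.595). It shared 0.41% of its stretches.

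Hspb1 encodes HSP25, the mouse counterpart of human HSP27, a small heat shock protein that holds unfolded clients without ATP and binds actin. Hspb1 (ENSMUSG00000004951.10, chromosome 5, 135887919 to 135889563) had 2, 62 and 224 reads. Control was close to no signal and both treated libraries were clearly above it. The ratios to control were 33.1 (8.795 to 279.7) and 111 (30.45 to 924.6), with wide intervals because of the 2 control reads. In the authors' deposited tables Hspb1 had a log2 difference of 0.92 after glucose oxidase, under 1, and 2.68 with Et2HOBA, on a transformed scale that compresses differences between low counts. It was the least abundant member per length, at 0.188, 6.06 and 18.7 TPM. Of its stretches 51.7% also occur in Hsp25-ps1 or Gm9817, which were not analysed here.

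The HSP90 genes, whose proteins hold kinases and hormone receptors in an activatable state, moved least. Hsp90aa1 (ENSMUSG00000021270.13, chromosome 12, 110690605 to 110702728), the stress-inducible form, had 13961, 14184 and 18102 reads. It was 1.09-fold (1.061 to 1.112) and 1.29-fold (1.26 to 1.317) the control level. Hsp90ab1 (ENSMUSG00000023944.14, chromosome 17, 45567775 to 45573271), the constitutive form, had 99596, 99704 and 105848 reads and was the most abundant member per length in all 3 libraries, at 3215, 3349 and 3045 TPM. Its log2 ratios were 0.10 and 0.08, and the second turned to -0.07 with total-count scaling, so no direction with Et2HOBA can be given. Hsp90aa1 was 9.66% of the HSP90 pair per length in control, 9.79% under glucose oxidase and 11.5% under the combined treatment.

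The mitochondrial chaperonin is a barrel of HSP60, encoded by Hspd1, with a lid of HSP10, encoded by Hspe1, and it folds proteins imported into the matrix. Hspd1 (ENSMUSG00000025980.14, chromosome 1, 55077835 to 55088243) had 11223, 17055 and 23163 reads, lowest in control and highest with Et2HOBA. It was 1.62-fold (1.586 to 1.664) and 2.05-fold (2.005 to 2.098) the control level. Hspe1 (ENSMUSG00000073676.4, chromosome 1, 55088132 to 55091307), which shares the element shown above, had 3491, 4484 and 5294 reads. It was 1.37-fold (1.313 to 1.436) and 1.51-fold (1.443 to 1.573) the control level and did not pass the limit. Hspd1 and Hspe1 were thus higher in both treated libraries, and the fold was larger for Hspd1 in both. The annotated spans of the 2 genes overlap at their starts, on opposite strands. Per length, Hspd1 went from 411 to 650 and 756 TPM and stood above Hspa8 (623 TPM) in the library with Et2HOBA. That order rests on how shared reads were assigned: with the reads of their listed pseudogene copies added, Hspa8 stood at 913 TPM and Hspd1 at 781 TPM there.

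**Figure D3:**
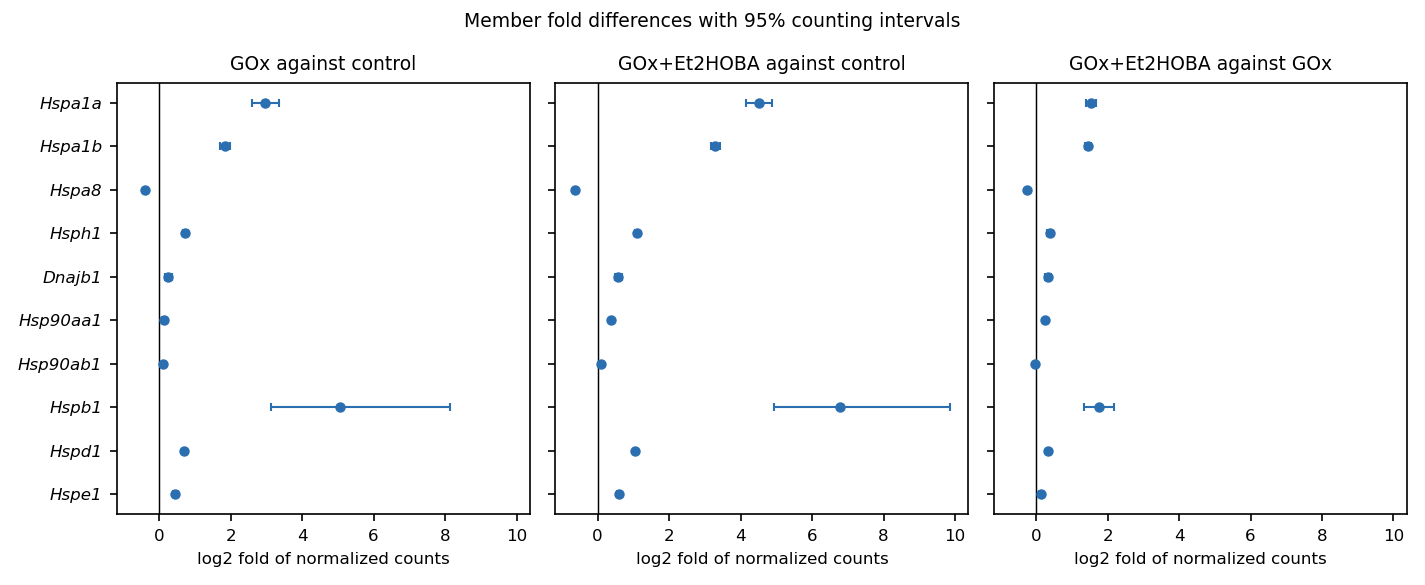
Log2 fold of normalized counts of each member, without an addition to the counts, for glucose oxidase (GOx) against control, GOx plus Et2HOBA against control, and GOx plus Et2HOBA against GOx; bars are exact 95% counting intervals and the vertical line marks equal levels. Hspa1a, Hspa1b and Hspb1 lie far to the right in each panel, Hspa8 lies to the left, and the interval of Hspb1 against control is wide because control had 2 reads.

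The treated libraries differ by the exposure to Et2HOBA. The inducible genes led this comparison too: Hspb1, Hspa1a and Hspa1b were higher past the limit with Et2HOBA, and 0 members were lower. Over all listed genes 8.55% passed in either direction and 6.39% upward, of which 959 of 1169 genes were processed pseudogenes. Over the 13285 protein-coding genes 3.32% passed in either direction and 0.971% upward. Hspb1 was 3.36-fold higher with Et2HOBA (2.524 to 4.524), Hspa1a 2.9-fold (2.612 to 3.215) and Hspa1b 2.74-fold (2.597 to 2.897). The other 7 members ranged in log2 ratio from -0.25 for Hspa8 to 0.37 for Hsph1, and the member median was 0.33 beside 0 over all genes. With the transformation of the authors' deposited tables, recomputed here for this pair, Hspa1b alone passed, at 1.08, while Hspa1a had 0.78 and Hspb1 0.38. With 100 added to the counts Hspb1 had 0.94 and did not pass, which left 2 members. Hsp90ab1 had a log2 ratio of -0.02, which turned to 0.03 with size factors taken from genes with no shared stretch. No member that was higher than control after glucose oxidase was nearer to control with Et2HOBA, apart from Hsp90ab1. Its log2 ratio to control went from 0.10 to 0.08.

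More than 10% of the stretches of 6 members occur in another gene: Hspa1a and Hspa1b, mainly in each other, and Hspa8, Hsp90aa1, Hspb1 and Hspd1, in pseudogenes. Genes that share stretches with Dnajb1, at most 6 stretches each, were left out here. The 16 listed pseudogenes that share a stretch with another member share it with Hspa8, Hsp90aa1, Hspd1 or Hsp90ab1. The last has 4.49% of its stretches shared. After glucose oxidase 12 of these 16 pseudogenes were lower than control past the limit and 0 higher. The median log2 ratio was -2.11, and with Et2HOBA it was -0.40. Gm8355, a copy of Hspa8, had 995, 218 and 599 reads, while Gm15459, which shares 45.3% of the Hspa8 stretches, had 19978, 13519 and 12875. Gm12346, a copy of Hsp90aa1, had 420, 144 and 547 reads, and Hspd1-ps3 had 354, 175 and 734. Each of these but Gm15459 was lowest in the glucose oxidase library, while Gm15459, like Hspa8, was lowest under the combined treatment.

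Adding these copies back to their parent genes moved the log2 ratios of the parents by less than 0.1. The log2 ratio of Hspa8 against control went from -0.39 to -0.46 after glucose oxidase and stayed at -0.64 with Et2HOBA. For Hspd1 the values were 0.70 and 0.67 after glucose oxidase, and 1.04 in both cases with Et2HOBA. For Hsp90aa1 they were 0.12 and 0.07 after glucose oxidase, and 0.37 and 0.36 with Et2HOBA. The 4 members that share less than 10% of their stretches (Hsph1, Dnajb1, Hsp90ab1 and Hspe1) had a median log2 ratio of 0.35 after glucose oxidase and 0.58 with Et2HOBA, and none of the 3 genes with the largest ratios is among them.

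**Figure D4:**
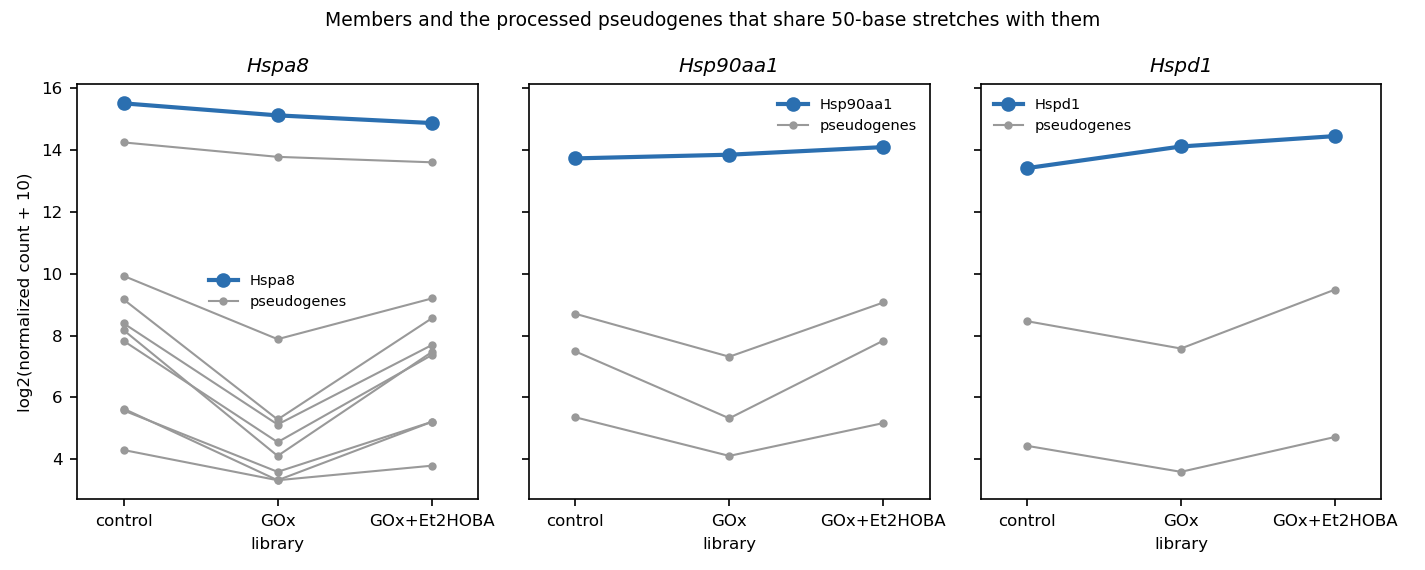
Log2 of normalized count plus 10 for Hspa8, Hsp90aa1 and Hspd1 (blue) and for the listed processed pseudogenes that share 50-base stretches with each (grey) in the 3 libraries; lines join the values of a gene. Most grey lines dip in the glucose oxidase (GOx) library, such as Gm8355 with 218 reads there against 995 in control; the blue lines are not lowest there.

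Wider chaperone lists place the members among their pathway. The transcript of the factor itself, Hsf1, had 1711, 1964 and 2063 reads, with log2 ratios of 0.29 and 0.26. HSF1 is regulated mainly by trimer formation and modification of the protein, which RNA does not show. Of the 5 listed genes for heat shock factors and their binding proteins, 0 passed the limit after glucose oxidase, and 1 was lower with Et2HOBA, Hsf2bp, with 27, 12 and 3 reads. Over 9 such lists together, which hold 76 listed genes besides the members, 5 were higher and 0 lower after glucose oxidase, and 9 were higher and 2 lower with Et2HOBA. That is 6.58% and 14.5% of them in either direction. These shares were not above the 12.7% and 14.7% over all listed genes, or the 9.3% and 16.6% over protein-coding genes. Upward alone, the shares were 6.58% and 11.8%, beside 4.07% and 6.66% over all listed genes and 4.53% and 7.33% over protein-coding genes. The median log2 ratios of the 76 genes were 0.17 and 0.15.

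Among 9 other genes of the HSP70 and HSP110 families, Hspa9 was higher past the limit in both comparisons. Hspa9 encodes mortalin, the mitochondrial HSP70 that pulls proteins into the matrix and hands them to the chaperonin, and it had 13991, 33358 and 51058 reads, with log2 ratios of 1.35 and 1.86. Lonp1, the protease that clears damaged matrix proteins, had 6076, 17890 and 23739 reads, with log2 ratios of 1.65 and 1.96. Grpel2, an exchange factor for mortalin, had 656, 909 and 1350 reads and passed with Et2HOBA only, at 1.02. All 10 genes of mitochondrial import and proteolysis had a log2 ratio above 0 in both comparisons against control (9 and 7 with total-count scaling), and 1 passed after glucose oxidase and 2 with Et2HOBA (1 with total-count scaling). Hspa12b, an endothelial member of the HSP70 superfamily, was lower, with 11774, 7344 and 5206 reads, and passed the limit downward with Et2HOBA at -1.19.

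Of 7 other small heat shock genes 4 were listed. Cryab, which encodes alpha-B-crystallin, a partner of HSP25, had 1516, 3071 and 5693 reads, with log2 ratios of 1.11 and 1.89. Hspb6 had 427, 834 and 1126 reads and log2 ratios of 1.04 and 1.37. Hspb2 and Hspb7, with 6 to 35 reads, did not pass. With total-count scaling 1 of Cryab and Hspb6 passed after glucose oxidase.

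Of the 14 listed J-domain genes, 1 passed upward after glucose oxidase and 4 with Et2HOBA (2 with total-count scaling), and 0 passed downward. Dnaja4 had 399, 838 and 1267 reads and log2 ratios of 1.15 and 1.63, with 51.9% of its stretches shared. Dnaja3, the mitochondrial J-domain partner of mortalin, had 2400, 4203 and 5845 reads and log2 ratios of 0.90 and 1.27. Dnajc21 and Dnajc2, which act in ribosome assembly and at the ribosome, had log2 ratios of 1.14 and 1.03 with Et2HOBA. Dnaja1, a cytosolic partner of HSC70 chosen after its values were seen, ran with Hspa8, at 10770, 8000 and 7384 reads and log2 ratios of -0.33 and -0.55.

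Chaperones of the endoplasmic reticulum, listed as a contrast because another stress pathway controls them, did not follow the inducible members. Of 14 genes, 0 passed the limit after glucose oxidase and 1 was lower with Et2HOBA, Sdf2l1, with 1019, 520 and 464 reads. Their median was -0.30 under glucose oxidase and -0.21 under the combined treatment, and 5 of 14 were above 0 in each, or 4 after glucose oxidase with total-count scaling. Hspa5, which encodes BiP, the HSP70 of this compartment, was chosen after its values were seen and had 17473, 18357 and 28410 reads, with log2 ratios of 0.17 and 0.69.

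**Figure D5:**
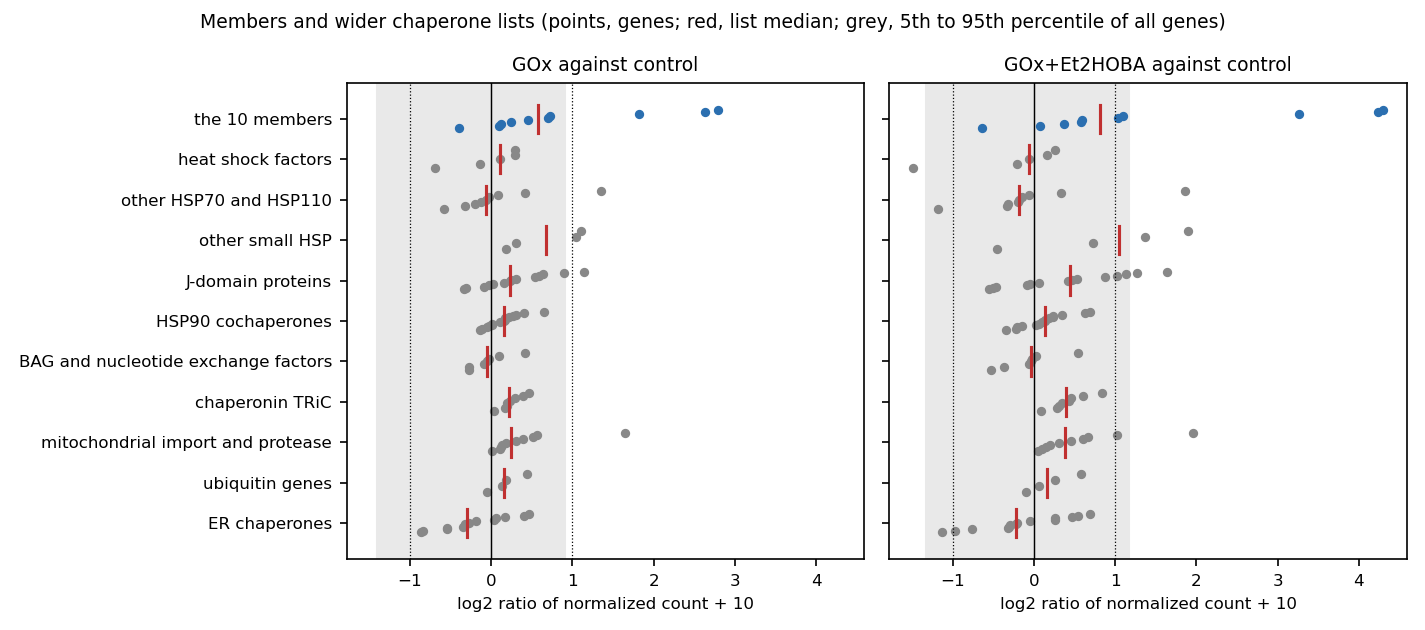
Log2 ratios (normalized count plus 10) of the 10 members (blue) and of the genes in 10 wider lists (grey points) for glucose oxidase (GOx) against control and GOx plus Et2HOBA against control; red bars are list medians, dotted lines the limit of 1, and the grey band the 5th to 95th percentile of all listed genes. Hspa1a, Hspb1 and Hspa1b form the far right of the member row, and the median of endoplasmic reticulum chaperones lies below 0 in both panels.

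As a share of all reads in a library, the 10 members together were almost constant. They held 0.504% in control, 0.508% under glucose oxidase and 0.494% under the combined treatment. With the main size factors their summed normalized count was 1.05-fold (1.044 to 1.057) and 1.09-fold (1.083 to 1.097) the control level. Hspa8 and Hsp90ab1 held most of the members' reads and together went from 0.41% to 0.383% and 0.34% of all reads. With total-count scaling Hspa8 had log2 ratios of -0.45 and -0.79 against control, and Hsp90ab1 had 0.04 and -0.07. The other 8 members went from 0.0934% to 0.126% and 0.154%. The sum thus hid shares that moved in opposite directions.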

How the data were processed

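Stranded libraries were made from polyadenylated RNA, per the labels' protocols. The submitters' processing notes name STAR, featureCounts and the build mm10, with no versions. Per the file headers, the authors deposited raw read counts for control and for glucose oxidase plus Et2HOBA, with log2-scale normalized values and their difference. For glucose oxidase against control the authors deposited a log2 difference per gene. Glucose oxidase counts were recovered here by inverting that transformation with the control counts. All 18275 genes matched by symbol came within 0.01 of a whole number, 12 with a shared name were placed by whole reads, and vst in DESeq2 1.42.0 on those counts returned the deposited differences within 1e-06, a step the sources used here do not state.

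Size factors were medians of ratios over 3 libraries. Shared 50-base stretches (either strand) and exon lengths came from GENCODE M21 (longest transcript per gene), in which all 10 members had the listed version and position. The recovery and the limit were tested on simulated data with Poisson counting error only. Such data cannot show how often the limit is passed through variation between replicate libraries. With 1 library per group no p-value was computed. Alternatives covered pseudocount, scaling (edgeR 4.0.16), filter, limit and deposited scale. All 10 members passed the filter at a mean normalized count of 10, so it could not change their values. Hspb1, at 1.94 in control, passed through the treated libraries. Members and lists were chosen with earlier results of these data known. Named were all members, Hsf1, list genes past the limit (at most 5 a list) and, for each member, at most 2 genes sharing stretches, taken by control reads. Named in addition after their values were seen were Dnaja1, Hspa5, Bag3, Cct4, Rps27a, Ppid and Ptges3.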

Additional observations from a re-analysis of the deposited data

How the results depend on the processing

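A pseudocount is added to both counts, so the values under another pseudocount keep their sign by construction. Across 10 members and 3 comparisons, 178 of 180 log2 ratios, those included, under another pseudocount, scaling or the deposited scale kept their sign. The other 2 were Hsp90ab1 with both treatments against control at -0.073 with total-count scaling, and against glucose oxidase at 0.0294 with size factors over genes with no shared stretch. Total-count scaling gave member medians of 0.52 for glucose oxidase and 0.66 for the combined treatment against control, and 0.24 for the latter against the former. It left 3 members past the limit for the combined treatment against control. The all-gene medians of the 3 comparisons under it were -0.06, -0.13 and -0.08. Relative to the second of these 5 members passed, but subtracting the median nearly undoes the change of scaling. With a pseudocount of 100, 2 members passed after glucose oxidase and 2 between the treated libraries, Hspb1 having 0.69 and 0.94. Total-count scaling also moved the higher share of all genes past the limit for the combined treatment against control from 45.3% to 35%. Summing Hspa1a and Hspa1b gave medians of 0.46 and 0.59 against control. At a limit of 0.5, 5 members passed after glucose oxidase and 8 with Et2HOBA; at a limit of 2, 3 passed for the combined treatment against control and 0 against glucose oxidase. The deposited scale left 1 (Hspb1 and Hspa1a did not pass) in the latter. Over protein-coding genes, chosen after the data were seen, 3.32% rather than 8.55% of genes passed in that comparison. Depth limits Hspb1 in control. No paired analysis was possible because each group has 1 library.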

Other observations

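The 8 subunits of the chaperonin TRiC, which folds actin and tubulin, were above control in both comparisons, with 0 past the limit and medians of 0.22 after glucose oxidase and 0.39 with Et2HOBA. Cct4 was the farthest, at 1.79-fold with Et2HOBA, with 8817, 11371 and 15907 reads in the order control, glucose oxidase, combined treatment. With total-count scaling 7 of 8 were above control in each comparison. The 15 cochaperones of HSP90 had 0 genes past the limit in any comparison and medians against control of 0.16 and 0.13, of which the second turned to -0.02 with total-count scaling; Ppid (2143, 3141 and 3334 reads) and Ptges3 (5453, 6730 and 8870 reads) were the highest after glucose oxidase and with Et2HOBA.

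Bag3, an HSP70 exchange factor that is often used as a readout of HSF1, was lower in the treated libraries, at 4975, 3869 and 3460 reads, with log2 ratios of -0.27 and -0.53. The 7 genes of its list had medians of -0.05 and -0.04, and 0 passed the limit. The 4 ubiquitin genes had medians of 0.15 and 0.16 with 0 past the limit; Rps27a was the highest, at 17259, 22007 and 25902 reads, and shares 40.6% of its stretches with other genes.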
